A study of Mus musculus with 6 samples.

Results

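The tumour necrosis factor (TNF) superfamily was followed as a list of 48 genes, 17 ligands, 21 receptors and 10 intracellular adaptors. The genes were listed by symbol, at a time when earlier results of these data were known. Of these 48 genes, 46 were among the 24628 rows of the expression table and 34 reached the level needed for a test, which 12731 rows did. The libraries are mouse lymphocyte RNA-seq from a study of RORα, a nuclear receptor encoded by Rora, in group 1 innate lymphoid cells (ILC1s), which are tissue lymphocytes related to natural killer (NK) cells. The 3 control libraries are titled Rora fl/fl, which means that both Rora alleles carry loxP sites, and are called floxed here. The other 3 are titled treatment, and were taken as the conditional knockout (cKO) group because the series text names no other group. The columns of the cKO libraries add the name Ncr1 to Rora, but no label states which promoter drives a Cre recombinase. Strain, age, sort gate, treatment and the number of animals behind a library are not given in the labels, so each p-value is set against the scatter among libraries of a group, whose origin, biological or technical, is unknown.

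TNF superfamily ligands are trimeric proteins, mostly anchored in the cell membrane, that bind receptors with cysteine-rich repeats on the same or on neighbouring cells. Receptors without a death domain bind TRAF adaptors, which recruit the ubiquitin ligases Birc2 and Birc3, and lead to NF-kB and MAP kinase signalling. Receptors with a death domain bind Tradd or Fadd, which can also lead to caspase activation and cell death. In lymphoid organs, lymphotoxins and LIGHT made by lymphocytes act on stromal cells, and CD27, GITR, 4-1BB, OX40 and DR3 act as costimulatory receptors on T cells, NK cells and innate lymphoid cells.

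Levels are given as RPKM, which divides reads by gene length and by depth, and each library rested on 20152146 to 22440170 recovered reads. The mean of Rora itself was 7.42 ± 0.493 RPKM in floxed and 6.07 ± 0.334 RPKM in cKO libraries (SD, n = 3 each), with no overlap, a log2 difference of -0.25 and a limma adjusted p of 0.242. An exact two-sided permutation test of these 3 against 3 libraries gave p = 0.1, the smallest it can give. RPKM summed over the whole gene does not check a deletion of part of it. Several lists of other genes moved with the groups. By limma at a Benjamini-Hochberg adjusted p under 0.05, 0.652% of all tested genes were higher and 0.668% lower. Of 20 tested immediate-early and dissociation genes 15 rose, with summed levels of 2657 to 2703 RPKM in floxed and 3896 to 3977 in cKO libraries. Of 9 conventional NK cell markers 4 rose (216 to 227 against 289.8 to 305 RPKM), and 8 had a positive and 1 a negative difference. Of 8 ILC1 markers, all of which were tested, 3 fell (753 to 777 against 674 to 683 RPKM). Lower without overlap and at an unadjusted p under 0.05 were 7 of these 8, against 12.7% and 8.6% of all tested genes. The other ILC1 marker was higher without overlap, against 7.61% of all tested genes. Of 6 tested markers shared by ILC1s and NK cells, 1 passed as lower and 5 did not pass. Their differences were negative in 4 and positive in 2, with a median log2 difference of -0.04. The shared marker that passed was Ncr1 (NKp46), at 372 ± 10.8 RPKM in floxed and 246 ± 12.5 RPKM in cKO libraries (SD, n = 3 each). The NK cell transcription factor gene Eomes was among the 4 NK cell markers that rose (42.4 ± 2.44 against 65.8 ± 4.31 RPKM; SD, n = 3 each). B cell markers summed to 13.3 to 13.4 in floxed and 7.96 to 9.18 RPKM in cKO libraries, where Cd22 fell among 2 tested markers and the defining genes Cd79a, Ms4a1 and Pax5 stayed under 1 RPKM in each library. Dendritic cell markers summed to 156 to 163 against 128 to 132 RPKM, where Cd74 and H2-Ab1 fell among 5 tested, Itgax was higher without overlap (56.1 against 65.8 RPKM) and passed in voom but not in limma, and Flt3 and Siglech were under 1 RPKM throughout. Macrophage markers summed to 27.5 to 31.7 against 25.6 to 25.8 RPKM, with none of 3 tested passing in limma or voom. Of these, 1 was lower at an unadjusted p under 0.05, against 8.6% of all tested genes. Xist RNA fell from 31.9 ± 3.16 to 9.43 ± 0.394 RPKM while the Y-linked gene Ddx3y rose from 10.4 ± 0.498 to 20.8 ± 0.438 RPKM (n = 3 each), so both groups held both transcripts in different proportions. The part of these shifts in the results below was not tested.

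Among the 34 tested TNF superfamily genes, 3 passed the test as lower in cKO libraries and none as higher. They were Tnfrsf25, which encodes death receptor 3 (DR3) and fell to 47.8% of its floxed level, Tnfsf14, which encodes LIGHT and fell to 69.3%, and Lta, which encodes lymphotoxin alpha and fell to 72.7%. By limma at a Benjamini-Hochberg adjusted p under 0.05, over all tested genes 0.668% were lower and 0.652% higher, 1.32% in either direction, and the 3 of 34 members make 8.82%. At an unadjusted p under 0.05, 6 members were lower and 2 higher, against 8.6% and 5.55% of all tested genes. The libraries of the groups did not overlap for 10 members that were lower (29.4%) and 2 that were higher, against 12.7% and 7.61% of all tested genes. The difference was negative in 24 of 34 members (70.6%) and positive in 10, against 57.3% and 42.7% of all tested genes, with a median log2 difference of -0.08 for the members and -0.03 for all tested genes. The balance over all genes moved with the scaling. Median centring turned 706 higher and 1095 lower genes at an unadjusted p under 0.05 into 1081 and 693, and 83 higher and 85 lower genes at the adjusted p into 124 and 71. Under it 45.6% of all tested genes and 21 of 34 members had a negative difference, with a median of -0.04 for the members and 0.02 for all tested genes. Voom gave 321 higher and 210 lower genes, and 226 and 307 when scaled by read totals. In voom on recovered reads, the same 3 members passed and none was higher, against 1.65% of tested genes lower and 2.52% higher. No tested member entered through the values of 1 group alone. In bulk libraries, fewer cells of a type and less RNA per cell cannot be told apart.

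**Figure D1:**
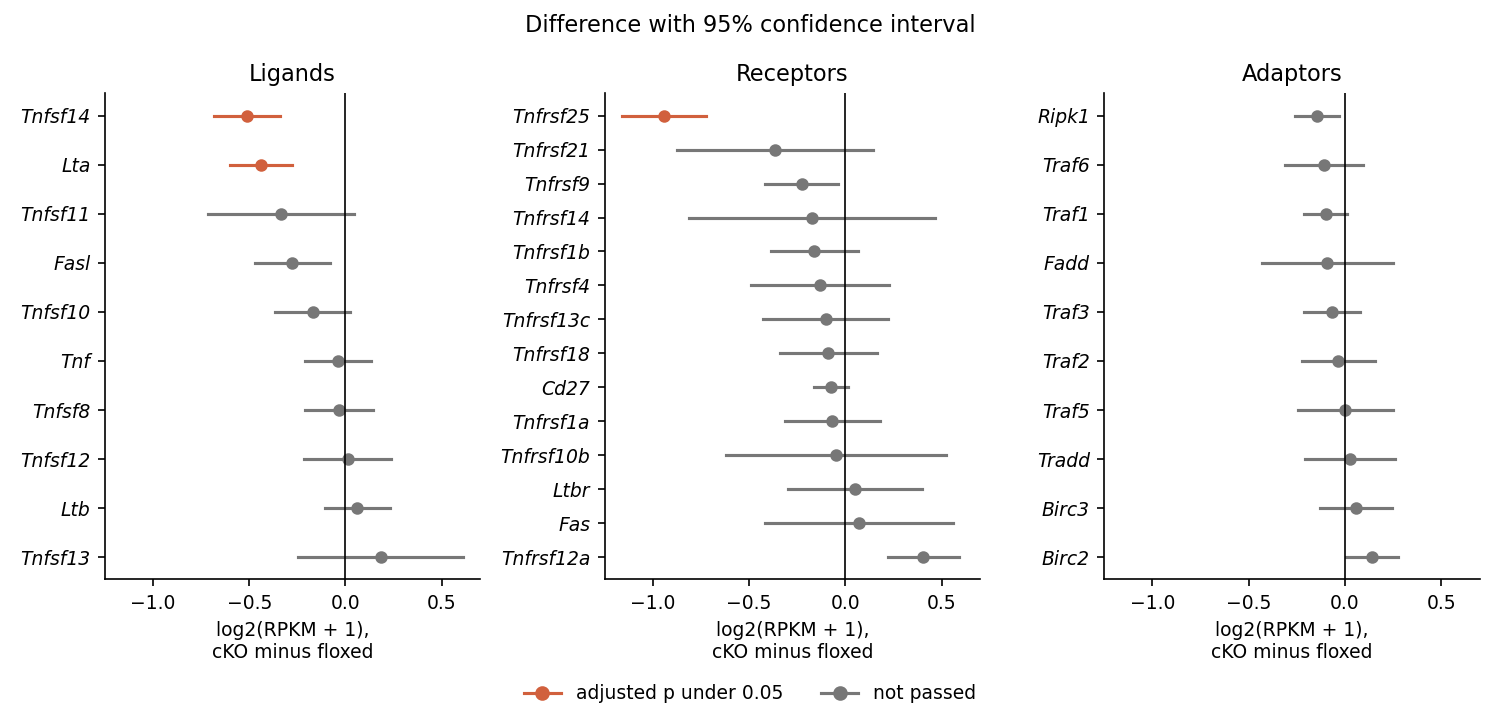
Log2 difference in log2(RPKM + 1), cKO minus floxed, for the 34 tested members by role, with the 95% confidence interval of the limma fit over 3 libraries a group; orange marks an adjusted p under 0.05. Tnfrsf25 at -0.94, Tnfsf14 at -0.51 and Lta at -0.44 are the 3 that passed, and no member on the right of 0 did.

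The upstream sequences of the 3 genes that fell are shown with the letters of motifs bound by nuclear receptors, by FOS and JUN dimers and by NF-kB. They are RefSeq sequences of build GRCm38.p6, written 5′ to 3′ on the gene's strand, of the bases before a RefSeq start that lie outside the exons of the table, with motif matches in capitals. Tnfrsf25 has a RefSeq start at its first base in the table and a second inside the gene.
Tnfrsf25, chr4:152115684-152115933, plus strand: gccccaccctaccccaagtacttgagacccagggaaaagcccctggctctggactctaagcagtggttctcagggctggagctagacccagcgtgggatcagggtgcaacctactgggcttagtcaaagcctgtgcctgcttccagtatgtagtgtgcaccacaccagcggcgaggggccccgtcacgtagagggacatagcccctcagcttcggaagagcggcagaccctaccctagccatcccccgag
Tnfrsf25, second start, chr4:152116115-152116342, plus strand: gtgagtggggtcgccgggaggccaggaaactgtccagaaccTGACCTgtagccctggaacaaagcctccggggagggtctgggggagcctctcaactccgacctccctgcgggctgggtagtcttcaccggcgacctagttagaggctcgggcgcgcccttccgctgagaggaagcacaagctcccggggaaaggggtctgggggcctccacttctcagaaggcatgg
Tnfsf14, chr17:57194190-57194431, minus strand: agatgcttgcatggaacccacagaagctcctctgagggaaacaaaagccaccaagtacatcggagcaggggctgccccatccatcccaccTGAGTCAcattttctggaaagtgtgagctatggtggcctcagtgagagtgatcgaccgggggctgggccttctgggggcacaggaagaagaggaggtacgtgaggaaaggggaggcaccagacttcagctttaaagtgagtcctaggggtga
Lta, chr17:35205352-35205601, minus strand: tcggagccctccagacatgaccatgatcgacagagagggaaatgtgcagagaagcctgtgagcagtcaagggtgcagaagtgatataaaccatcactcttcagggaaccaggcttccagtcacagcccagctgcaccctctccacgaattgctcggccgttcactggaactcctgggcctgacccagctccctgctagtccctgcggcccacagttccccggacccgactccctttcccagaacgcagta
The capitals in the second Tnfrsf25 window are AGGTCA, the core of nuclear receptor response elements, read on the opposite strand, 187 to 182 bases before that start. The capitals in the Tnfsf14 window are TGANTCA, the core bound by FOS and JUN dimers, 160 to 154 bases before the RefSeq start. The first Tnfrsf25 window and the Lta window held no match to these motifs or to the NF-kB motif. Over both strands of the 250 bases before each start, AGGTCA was in 14.0% of 32851 RefSeq promoters and in 2 of 46 windows of the 40 members with a promoter entry, Tnfrsf13b and Tnfrsf25. TGANTCA was in 6.75% of all promoters and in 6 of 46 member windows, of Fas, Tnfrsf8, Tnfrsf9, Tnfsf13, Tnfsf13b and Tnfsf14. The NF-kB motif was in 3.9% of all promoters and in 4 of 46 member windows, of Ltb, Tnfrsf8, Tnfrsf9 and Traf3. A match describes the letters of a window and not a bound site. AGGTCA was searched without the bases beside it, so a match does not single out RORα among nuclear receptors. Tnfsf4, Tnfsf9, Tnfsf12, Cd40lg, Cd70, Tnfrsf10b, Cd40 and Tradd had no promoter entry.

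Of the 17 ligands, 10 were tested, 2 passed as lower and none as higher, against 0.668% and 0.652% of all tested genes. The median log2 difference of the tested ligands was -0.10. The 2 that fell, Tnfsf14 and Lta, both lie on chromosome 17 in separate clusters of ligand genes. Tnfsf14 (LIGHT, which binds the herpesvirus entry mediator and the lymphotoxin beta receptor) lies at chr17:57189492-57194189 in mm10, on the minus strand. Its levels were 40.3, 37.1 and 35.4 RPKM in floxed and 26.6, 24.1 and 27.4 RPKM in cKO libraries. The groups did not overlap, and the means were 37.6 ± 2.49 and 26.0 ± 1.73 RPKM (SD, n = 3 each). The log2 difference was -0.51 (SE 0.072, 95% interval -0.68 to -0.34; limma adjusted p = 0.0262). Tnfsf14 no longer passed with any single library left out, at adjusted p of 0.0682 to 0.0926, nor without the filter on low values (0.0669) or without the variance trend (0.0790).

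Lta encodes lymphotoxin alpha, which is secreted on its own or held at the cell surface in a complex with lymphotoxin beta. The gene lies at chr17:35203165-35205351, on the minus strand, next to Tnf and Ltb. Its levels were 26.0, 25.1 and 22.5 RPKM in floxed and 18.3, 17.4 and 17.9 RPKM in cKO libraries, again without overlap. The mean went from 24.6 ± 1.84 to 17.8 ± 0.469 RPKM (SD, n = 3 each), a log2 difference of -0.44 (SE 0.067, 95% interval -0.60 to -0.28; limma adjusted p = 0.0377). Leaving out floxed library 3 kept the call (0.0459), and leaving out any other single library ended it (0.108 to 0.149). So did dropping the filter (0.0759) or the variance trend (0.0946), median centring (0.0505) and quantile normalisation (0.0501).

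The neighbours of Lta did not pass the test. Ltb, Tnf and Lta lie within 10.9 kb of chromosome 17. Tnf, the founding inflammatory cytokine of the family, was at 26.4, 23.0 and 26.3 RPKM in floxed and 25.2, 25.2 and 23.1 RPKM in cKO libraries, with overlapping groups and a log2 difference of -0.04 (95% interval -0.21 to 0.13). Ltb, the membrane-bound partner of Lta and the most abundant ligand on the list, was at 55.8, 56.5 and 48.3 RPKM in floxed and 54.5, 54.3 and 58.6 RPKM in cKO libraries, a log2 difference of 0.06 (95% interval -0.11 to 0.23). The ratio of Lta to Tnf, both per length, was 0.979 ± 0.118 in floxed and 0.730 ± 0.0418 in cKO libraries (SD, n = 3 each). The ratio of Lta to Ltb was 0.459 ± 0.0126 and 0.320 ± 0.0157. Neither ratio overlapped between the groups. Lta was chosen for these ratios after it had passed, so they describe the locus and add no test, and an exact permutation test of 3 against 3 libraries cannot go below 0.1.

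Fasl, the ligand of the death receptor Fas and an effector of cytotoxic lymphocytes, was at 16.5, 16.5 and 16.9 RPKM in floxed and 15.1, 12.2 and 13.5 RPKM in cKO libraries. The groups did not overlap, but the log2 difference of -0.28 (95% interval -0.47 to -0.08) had a limma adjusted p of 0.202. Tnfsf11, which encodes RANKL, a factor for osteoclasts and lymphoid tissue, was also lower without overlap at a low level, 2.40 ± 0.203 against 1.72 ± 0.471 RPKM (SD, n = 3 each), with a log2 difference of -0.34 and a limma adjusted p of 0.414. The other 4 tested ligands overlapped between the groups. Tnfsf8 (CD30 ligand) was at 21.1 and 20.6 RPKM on average and Tnfsf10 (TRAIL, a ligand of death receptors) at 11.9 and 10.5 RPKM. Tnfsf12 (TWEAK) was at 14.7 and 14.9 RPKM and Tnfsf13 (APRIL, a B cell factor) at 7.55 and 8.92 RPKM, where cKO library 2 stood apart at 12.0 RPKM. Tnfsf12 and Tnfsf13 share 48.3% and 60.0% of their exon bases with a readthrough gene on the same strand, so their reads may be split and their values are uncertain.

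A further 6 ligands were under the filter of 1 RPKM in 3 libraries. Tnfsf15, the ligand of DR3 known as TL1A, had 0 to 8 reads per library. Cd70, the ligand of CD27, had 0 to 4 reads, and Tnfsf13b, the B cell factor BAFF, 0 to 12. Cd40lg had 8, 6 and 0 reads in floxed and none in cKO libraries, too few to compare. Tnfsf4 (OX40 ligand) had 22 to 64 reads and Tnfsf9 (4-1BB ligand) 5 to 28, with overlapping groups for both. Tnfsf18, the ligand of GITR, was not analysed here.

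**Figure D2:**
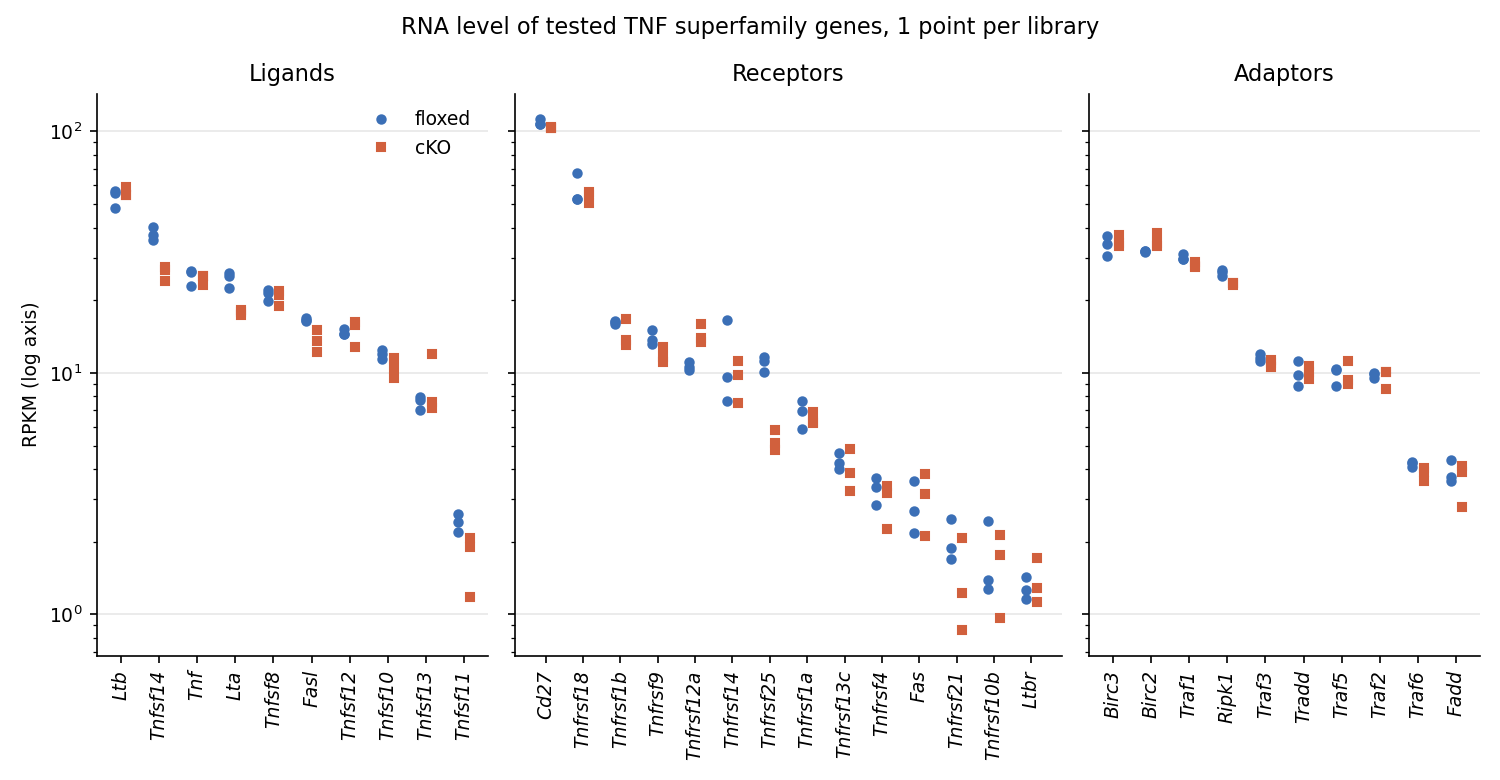
RPKM on a log axis for the 34 tested members, ordered by mean level within each role, with 1 point per library (circles floxed, squares cKO; 3 libraries each). Cd27 leads at over 100 RPKM, Ltbr is lowest among the receptors, and the groups separate visibly for Tnfrsf25, Tnfsf14 and Lta.

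Among the 21 receptors 14 were tested, 1 passed as lower and none as higher, against 0.668% and 0.652% of all tested genes. The median log2 difference of the tested receptors was -0.09. The 1 receptor that fell was Tnfrsf25, at chr4:152115934-152120119 in mm10, on the plus strand. Its product DR3 carries a death domain, binds TL1A and costimulates T cells and innate lymphoid cells. The levels were 10.1, 11.7 and 11.2 RPKM in floxed libraries, from 497, 536 and 551 reads. In cKO libraries they were 4.79, 5.14 and 5.79 RPKM, from 245, 247 and 291 reads. Each cKO library was below each floxed library. The mean fell from 10.97 ± 0.834 to 5.24 ± 0.507 RPKM (SD, n = 3 each), a log2 difference of -0.94 (SE 0.092, 95% interval -1.16 to -0.72; limma adjusted p = 0.00711). This was rank 46 by p among all tested genes. The call held in each of 15 alternatives, at an adjusted p of at most 0.0459. No other gene of the table shares exon bases with Tnfrsf25, and the same holds for Tnfsf14 and Lta.

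DR3 is also a receptor of T cells, so T cell markers are given beside it. Of 6 tested markers 1 passed: Cd3e was at 5.52, 5.67 and 4.86 RPKM in floxed and 3.05, 2.77 and 2.98 RPKM in cKO libraries (limma adjusted p = 0.0232). Cd3d went from 12.7 ± 2.03 to 13.0 ± 0.545 RPKM, Cd3g from 13.0 ± 0.864 to 12.9 ± 0.367 RPKM and Cd4 from 27.7 ± 1.76 to 27.6 ± 2.499 RPKM (SD, n = 3 each). Cd8b1 was at 1.27 ± 0.220 and 0.265 ± 0.190 RPKM, with a limma adjusted p of 0.0976, it passed in voom, where Cd3e was the only other marker to do so, and it passed the filter through the floxed libraries only. Foxp3, the other tested marker, overlapped between the groups and passed in neither limma nor voom. Cd8a, Cd5 and Cd6 were under 1 RPKM in each library, and no marker was at 0 throughout. The 9 markers summed to 61.3 to 64.6 RPKM in floxed and 55.5 to 61.4 RPKM in cKO libraries. These overlap only because cKO library 2 (61.38 RPKM) lay above floxed library 2 (61.25 RPKM). Most of the sum came from Cd4, Cd3d and Cd3g, so it says little about Cd3e and Cd8b1, which were lower. The part of T cells in the Tnfrsf25 result was not tested.

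**Figure D3:**
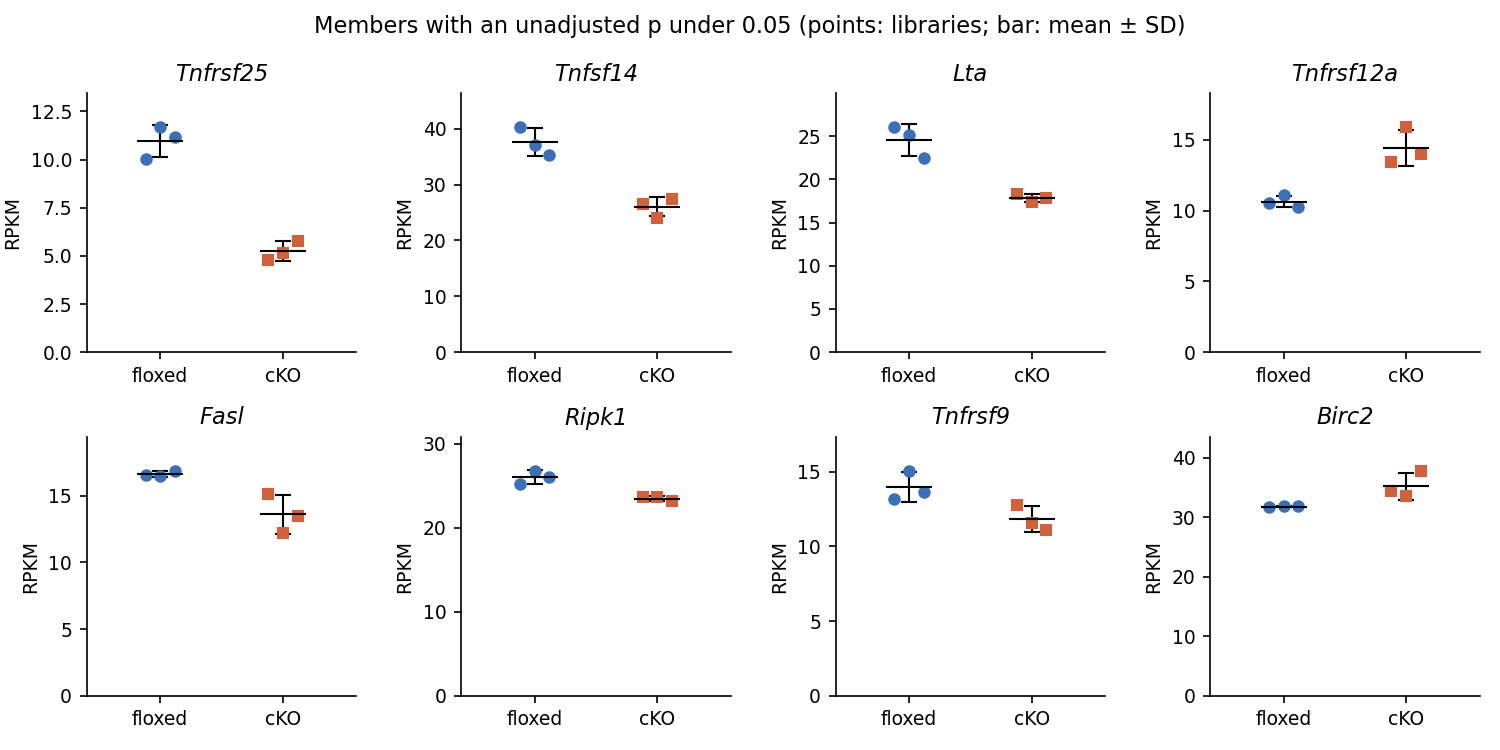
RPKM per library for the 8 members with an unadjusted p under 0.05, with the mean and SD of 3 libraries a group as black bars and each axis starting at 0. The floxed and cKO points do not overlap in any of the 8 panels; Tnfrsf25 shows the widest gap relative to its level, and Tnfrsf12a and Birc2 are the 2 that lie higher in cKO libraries.

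Tnfrsf12a, which encodes Fn14, the receptor of TWEAK, moved the other way without passing. It was at 10.6, 11.1 and 10.3 RPKM in floxed and 13.5, 15.9 and 14.0 RPKM in cKO libraries, a log2 difference of 0.41 (95% interval 0.22 to 0.59; limma adjusted p = 0.0733). All cKO libraries were above all floxed libraries, and the gene passed in 1 of 15 alternatives, with only genes of at least 5 RPKM tested (0.0475). Tnfrsf9 (4-1BB), an activation-induced costimulatory receptor, was at 13.2, 15.1 and 13.7 RPKM in floxed and 12.8, 11.6 and 11.1 RPKM in cKO libraries. That is a log2 difference of -0.23 (95% interval -0.41 to -0.04), not overlapping, at a limma adjusted p of 0.282.

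The most abundant receptors did not pass the test. Cd27, a costimulatory receptor and NK maturation marker, was at 113, 107 and 108 RPKM in floxed and 104, 103.6 and 103.4 RPKM in cKO libraries. These groups did not overlap, but the log2 difference was -0.07 (95% interval -0.16 to 0.02; limma adjusted p = 0.453). Tnfrsf18 (GITR) was at 67.3, 52.7 and 52.3 RPKM in floxed and 50.4, 54.6 and 56.2 RPKM in cKO libraries, and only floxed library 1 stood apart. A gene on the opposite strand covers 27.2% of the Tnfrsf18 exon bases, and whether reads were counted by strand is not stated. Tnfrsf1b, the second TNF receptor, was at 15.9, 16.3 and 16.5 RPKM in floxed and 16.7, 13.0 and 13.7 RPKM in cKO libraries, with overlap and a log2 difference of -0.16 (95% interval -0.38 to 0.06). Cd27 stood far above Tnfrsf18, and Tnfrsf18 far above the rest, while Tnfrsf1b, Tnfrsf9, Tnfrsf12a and Tnfrsf14 had library values that overlap each other.

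Tnfrsf14, the herpesvirus entry mediator bound by LIGHT, was at 9.63, 7.67 and 16.5 RPKM in floxed and 7.54, 9.82 and 11.2 RPKM in cKO libraries. Floxed library 3 was high, and the log2 difference of -0.17 had a wide 95% interval of -0.81 to 0.46. Tnfrsf1a, the death domain receptor of TNF, was at 6.83 and 6.45 RPKM on average, Tnfrsf13c (BAFF receptor) at 4.30 and 3.98 RPKM and Tnfrsf4 (OX40) at 3.30 and 2.95 RPKM. Fas averaged 2.81 and 3.02 RPKM, Tnfrsf21 (DR6) 2.02 and 1.39, Tnfrsf10b (the TRAIL receptor) 1.71 and 1.62 and Ltbr (lymphotoxin beta receptor) 1.28 and 1.38 RPKM. For all 8 of these the groups overlapped, and intervals such as -0.87 to 0.15 for Tnfrsf21 leave sizable differences possible. Over all tested genes 0.668% passed as lower by limma and 57.3% had a negative difference. Of 5 tested receptors with a death domain only Tnfrsf25 passed, and 4 had a negative difference. Of 9 without it none passed, and 7 had a negative difference. The difference between these classes was not tested. The filter left out 6 receptors. Tnfrsf8 had 0 to 8 reads per library, Ngfr 0 to 4, Tnfrsf19 2 to 12, Tnfrsf11a 2 to 38, Cd40 24 to 52 and Tnfrsf13b 12 to 75 reads. Tnfrsf17 was not analysed here.

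All 10 adaptors were tested and none passed by limma, with a median log2 difference of -0.05. At an unadjusted p under 0.05, 1 was lower and 1 higher, against 8.6% and 5.55% of all tested genes, and none passed in voom. Ripk1, the kinase that links TNF receptor 1 to NF-kB and to cell death, was at 25.2, 26.8 and 26.1 RPKM in floxed and 23.6, 23.6 and 23.2 RPKM in cKO libraries. The groups did not overlap, with a log2 difference of -0.14 (95% interval -0.26 to -0.03; limma adjusted p = 0.261). Ripk1 shares 34.3% of its exon bases with a predicted gene on the same strand, so its value is uncertain. Birc2 (cIAP1), a ubiquitin ligase recruited by TRAF2, was at 31.7, 31.9 and 31.9 RPKM in floxed and 34.4, 33.6 and 37.9 RPKM in cKO libraries, a log2 difference of 0.14 (limma adjusted p = 0.332). Its neighbour Birc3 (cIAP2), the most abundant adaptor, was at 30.5, 36.9 and 34.1 RPKM in floxed and 33.7, 37.1 and 34.6 RPKM in cKO libraries, with overlapping groups.

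Traf1, an NF-kB-induced member of the TRAF family, was at 31.0, 29.7 and 29.6 RPKM in floxed and 27.7, 27.4 and 28.8 RPKM in cKO libraries. It did not overlap between groups, with a log2 difference of -0.10 (95% interval -0.21 to 0.01; limma adjusted p = 0.411). Traf6, which serves CD40, RANK and Toll-like receptors, was also lower without overlap, at 4.21 ± 0.105 against 3.83 ± 0.243 RPKM (SD, n = 3 each; limma adjusted p = 0.633). Traf2, the TRAF shared by most of these receptors, was at 9.78 and 9.55 RPKM, Traf3, a brake on non-canonical NF-kB, at 11.5 and 11.0 RPKM, and Traf5 at 9.82 and 9.84 RPKM. The death domain adaptors Tradd (9.93 and 10.1 RPKM) and Fadd (3.87 and 3.60 RPKM) overlapped between groups. The 95% intervals of Traf1, Traf2, Traf3 and Ripk1 lay within -0.26 and 0.16 on the log2 scale. Those of the other adaptors reached outside this range, such as -0.31 to 0.09 for Traf6, -0.25 to 0.25 for Traf5 and -0.43 to 0.25 for Fadd.

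Read as ligand and receptor pairs, both partners were tested in 11 of 24 listed pairs. A tested receptor faced a ligand under the filter or not analysed in 6 pairs, a tested ligand such a receptor in 4, and neither was tested in 3. DR3 and TL1A belong to the first kind, since Tnfrsf25 had 245 to 551 reads per library while Tnfsf15 had 0 to 8. So do CD27 with Cd70 and GITR with Tnfsf18. Tnfsf14 RNA fell, a call lost with any single library left out. The RNAs of the LIGHT receptors, Tnfrsf14 and Ltbr, did not pass, with adjusted p of 0.833 and 0.916 by limma. In no pair did both partners pass. Lta and Ltb were measured well above Ltbr (1.16 to 1.43 RPKM in floxed and 1.13 to 1.71 RPKM in cKO libraries), the receptor of their complex.

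**Figure D4:**
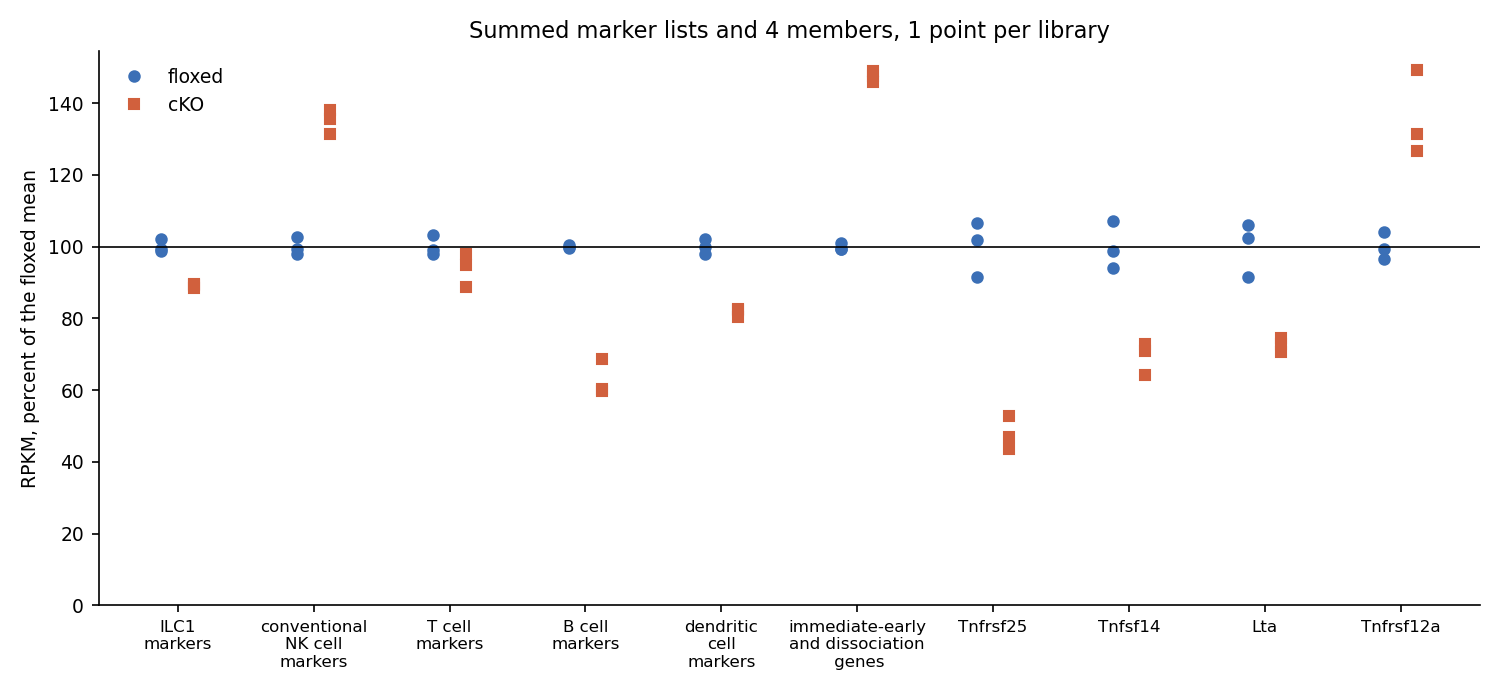
Level in each library as a percent of the floxed mean, for summed marker lists and for 4 members (circles floxed, squares cKO; the line is 100%). The 3 members that fell lie below 100% in the cKO libraries together with the ILC1, B cell and dendritic cell lists. The T cell list overlaps between groups only through cKO library 2. The immediate-early and NK cell lists and Tnfrsf12a lie above 100% in the cKO libraries.

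The wider pathway was given by 4 lists. At an unadjusted p under 0.05, 8.6% of all tested genes were lower and 5.55% higher. Of 9 tested other ligands, receptors and TRAF proteins none passed in limma or in voom, and 1 was higher at an unadjusted p under 0.05. This was Traf4, named after its value was seen, at 4.15 ± 0.489 and 5.09 ± 0.352 RPKM (SD, n = 3 each). The most abundant, Traf3ip3, an adaptor of lymphocyte development, was at 51.8 and 53.4 RPKM. Of 22 NF-kB kinases, subunits and inhibitors none passed in limma, with a median of -0.04, and 1 was higher and 3 lower at an unadjusted p under 0.05. These 4, also named after their values were seen, were Nfkbiz, which was higher, and Tab2, Nfkb2 and Nfkbib, which were lower. Nfkbia, the main inhibitor and an NF-kB target, was at 258 ± 21.3 and 295 ± 24.8 RPKM (limma adjusted p = 0.354), and was the 1 gene of this list that passed in voom, where it was higher. Of 14 caspases and other death receptor effectors none passed in limma or voom and 3 were lower at an unadjusted p under 0.05: Casp8 (78.2 ± 3.41 to 71.8 ± 2.43 RPKM), Cflar and Ripk3, of which the last 2 were named after their values were seen.

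The fourth list held ubiquitin enzymes of TNF signalling, of which 13 were tested, 1 rose and none fell in limma. At an unadjusted p under 0.05, 3 were higher and none lower, against 5.55% and 8.6% of all tested genes. These 3 were Tnfaip3, Otulin and Rnf11, the last named after its value was seen. In voom Tnfaip3 and Otulin passed, both higher. The gene that rose in limma was Tnfaip3, which encodes A20, a ubiquitin-editing inhibitor of NF-kB and itself an NF-kB target. It was at 182.5, 203 and 191 RPKM in floxed and 251, 254 and 245 RPKM in cKO libraries, without overlap. The log2 difference was 0.38 (SE 0.049; limma adjusted p = 0.0215). The call was lost with floxed library 3 or any cKO library left out (0.0711 to 0.0972), without the filter (0.0574) and without the variance trend (0.0980). Otulin, which removes linear ubiquitin chains, was at 77.0 ± 9.37 RPKM in floxed and 91.2 ± 5.07 RPKM in cKO libraries (SD, n = 3 each), with overlap, a log2 difference of 0.25 and a limma adjusted p of 0.301. Tnip1 and Tax1bp1, partners of A20, did not pass, at 90.9 and 89.3 RPKM and at 63.9 and 63.2 RPKM. Tnfaip3 is also induced in activated or handled cells, and the immediate-early genes given above rose in the same libraries; their part in the Tnfaip3 result was not tested.

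**Figure D5:**
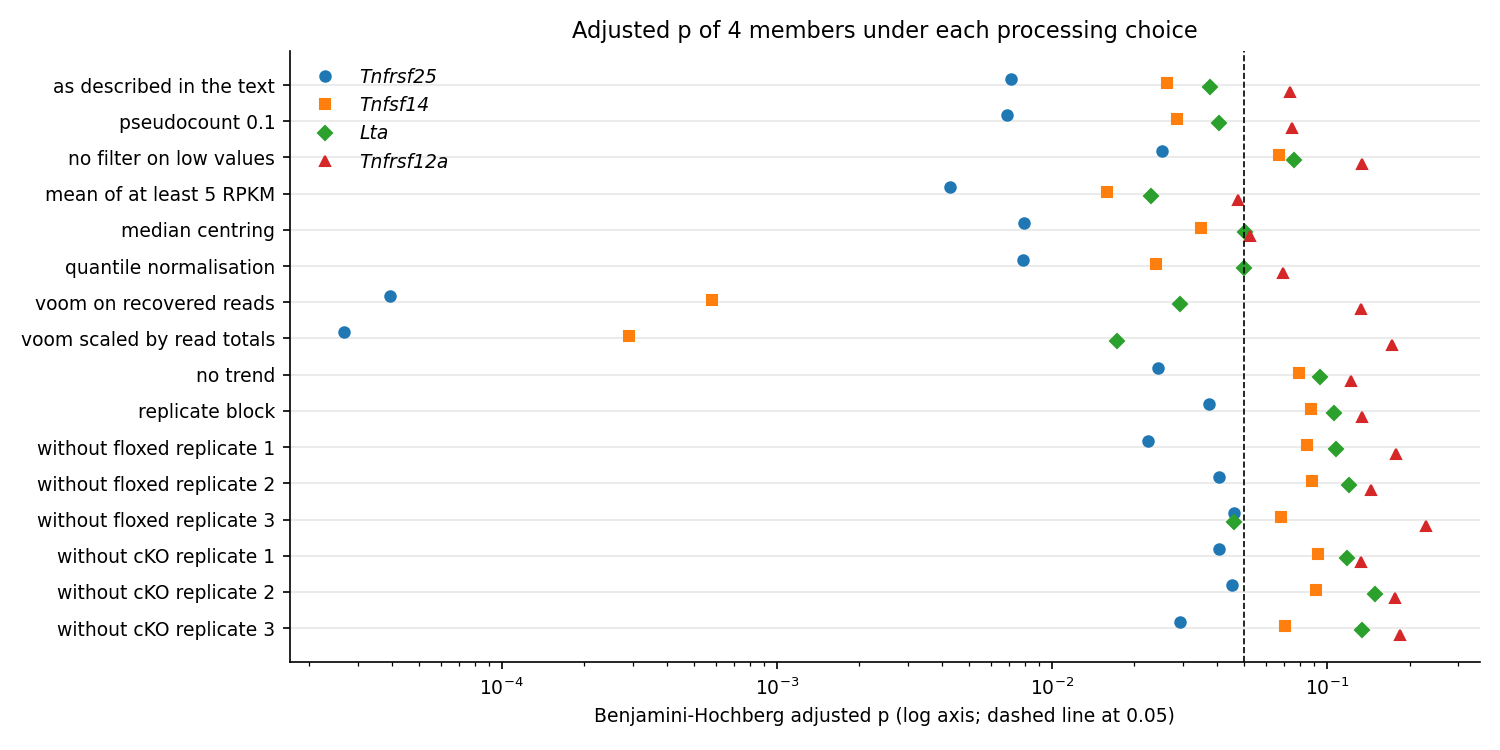
Benjamini-Hochberg adjusted p on a log axis for Tnfrsf25, Tnfsf14, Lta and Tnfrsf12a under the test as described and each of 15 alternatives, with the dashed line at 0.05. Tnfrsf25 stays left of the line in every row, Tnfsf14 and Lta cross it when most single libraries are left out, and Tnfrsf12a is left of it in 1 row.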

How the data were processed

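RNA-seq was measured in 6 lymphocyte libraries, 3 floxed and 3 cKO, for which the labels name no batch. Per the labels' protocols, TRIzol RNA went into a stranded mRNA library kit. The submitters' processing notes name the build mm10 and the tools STAR 2.5.3a, edgeR 3.12.1, Subread 1.5.1 and featureCounts, without their roles. Strand setting, annotation version and duplicate handling were not stated. The authors deposited RPKM per gene with exon coordinates and gene length. RPKM times length gave whole reads for 100% of values within 0.01 reads, and the recovered depth was 20152146 to 22440170 reads. Of recovered values from 1 to 20 reads, 77.4% to 80.4% were even in each library, so reads of this table may not be independent fragments and low values are less precise than their read number.

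limma 3.58.1 in R 4.3.3 (lmFit, eBayes with trend) was run on log2(RPKM + 1) for genes reaching 1 RPKM in 3 or more of 6 libraries, without covariates, two-sided, adjusted by Benjamini-Hochberg over all 12731 tested genes. Differences are cKO minus floxed on this scale, which understates changes of low genes. The script was tested on simulated data of independent reads with a fixed spread, which checks the code and not the rate of false calls in these libraries. All members are accounted for; per-library values are given for members with an unadjusted p under 0.05 and the 3 most abundant of each role, and from pathway lists the genes that passed and at most 3 others by level. Members, lists and tests were chosen with earlier results of these data known. Promoters are RefSeq sequences of GRCm38.p6, matched by symbol. A marker gene of the lists is not reported here.

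Alternatives were a pseudocount of 0.1, no filter, a mean of at least 5 RPKM, median centring, quantile normalisation, no variance trend, voom on recovered reads with a trimmed mean of M values (30% of M and 5% of A trimmed), a replicate block and each library left out. Voom scaled by read totals was chosen after seeing the data.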

Additional observations from a re-analysis of the deposited data

How the results depend on the processing

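Counts below are genes higher and lower. Against 83 and 85 over all tested genes, no filter gave 44 and 36, no variance trend 39 and 35, voom with a trimmed mean 321 and 210, voom by read totals 226 and 307, and 1 library left out 33 to 51 and 27 to 39; median centring gave 124 and 71. The replicate numbers shared by the groups gave correlations of deviations of -0.03, 0.01 and 0.04 for same-numbered libraries, and not every library correlated best with its own number, so they were not taken as pairs; the replicate block gave 37 and 23, with 0 ligands, and ended the calls of Lta (adjusted p = 0.106), Tnfsf14 (0.0876) and Tnfaip3 (0.0688). Ligands lower went from 2 to 0 without the filter and without the trend, to 1 with median centring and with quantile normalisation, and to 0 to 1 with 1 library left out. Receptors higher went from 0 to 1 at a mean of at least 5 RPKM, where 7531 genes were tested. Rora passed only in voom by read totals, at -0.29 (adjusted p = 0.0242). Receptors lower and adaptors kept their counts in each of 15 alternatives, and none of Tnfrsf25, Tnfsf14, Lta and Tnfaip3 changed sign in them. The cause of calls that changed was not tested. Of the 34 tested members, 18 that did not pass changed the sign of their log2 difference in at least 1 alternative, at a size of at most 0.145 and an adjusted p of at least 0.788, and 16 kept it. With median centring the difference was 0.00562 for Tnf, 0.00991 for Traf2 and 0.0113 for Tnfsf8; it was 0.00191 for Tnfsf8 in voom with a trimmed mean and -0.000553 for Traf5 in voom by read totals. With 1 library left out, differences that changed sign ranged as follows: Traf5 -0.0853 to 0.058, Tnfrsf18 -0.149 to 0.0304, Birc3 -0.0131 to 0.12, Tnfsf12 -0.0474 to 0.113, Fas -0.0689 to 0.245, Tnfrsf1a -0.157 to 0.00885, Tnfrsf10b -0.19 to 0.145, Ltb -0.00873 to 0.102, Tnfsf8 -0.0745 to 0.0256, Tnfrsf14 -0.391 to 0.117, Tradd -0.051 to 0.109, Traf2 -0.0694 to 0.0361, Fadd -0.176 to 0.0424, Tnfsf13 -0.0284 to 0.306, Tnfrsf13c -0.224 to 0.00822, Tnfrsf4 -0.215 to 0.00165, Tnf -0.101 to 0.0012 and Ltbr -0.0486 to 0.127. edgeR on recovered reads, listed as an alternative, was not run. The 12 members under the filter had at most 75 reads in a library and were not tested, and 3 libraries a group limit the rest.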
